A study of Mus musculus with 10 samples.

Results

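The 40 genes described here encode hydrolases, membrane proteins and regulators of the lysosome, and come from a list of symbols drawn up with earlier results of these data known, with no measured value in its rule. Of the 40, 39 were among the 11702 genes of the deposited gene table, all 39 passed the filter on low counts, and the transcription factor gene Tfeb was present only in the deposited transcript table. The set holds 6 membrane proteins, 9 proteases, 12 glycosidases, 4 sulfatases, 6 proteins of lipid handling, the granulin precursor gene Grn and the transcription factor genes Tfeb and Tfe3.

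Retinal polyA RNA of female mice was sequenced at P36. The rd10 mouse (strain B6.CXB1-Pde6brd10/J) carries a mutation in Pde6b, which encodes a subunit of the rod phosphodiesterase, and loses its rods early in life. Group rd10 HAL held 3 libraries of rd10 retinas injected with 20 μM halofantrine, an antimalarial, in 1 μL into the vitreous at P10 and again at P24. Group rd10 DMSO held 3 libraries of rd10 retinas that received the DMSO vehicle, and group WT DMSO held 4 libraries labelled wild type that received DMSO. All groups therefore share the anaesthesia, the injections and the vehicle, and no uninjected retina was analysed here. The labels name no strain of the wild type. They place the WT DMSO libraries, rd10 DMSO replicates 1 and 2 and rd10 HAL replicate 1 in batch 1, and rd10 DMSO replicate 3 and rd10 HAL replicates 2 and 3 in batch 2. The sample titles divide them further. WT DMSO replicates 1 to 3, the library labelled replicate 4 and the rd10 libraries of batch 1 carry 3 different set names, and the treatments of batch 2 carry different names, so a set and a group cannot be told apart wherever they coincide. The labels do not say outright that each library came from a separate mouse, so the p-values measure the spread between these libraries.

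The lysosome is the acidic compartment in which cells break down protein, glycans, nucleic acids and lipids delivered by endocytosis, phagocytosis and autophagy. Soluble hydrolases work in its lumen, and heavily glycosylated proteins such as LAMP1 and LAMP2 line its membrane. Many of its genes are bound by the related transcription factors TFEB and TFE3, which recognise a palindromic motif with the core CACGTG near the start of the gene. In the retina, the pigment epithelium digests shed rod outer segments in its lysosomes, and microglia and Muller glia take up debris of dying photoreceptors. Halofantrine is a cationic amphiphilic drug, a class whose members collect in acidic lysosomes.

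Counts on genes were 15512212 to 38160436 per library. Levels are given as CPM, counts relative to the size of each library after scaling by edgeR's TMM method over all 10 libraries. Pde6b, which carries the mutation, was at 2699, 2850 and 2855 CPM in WT DMSO replicates 1 to 3. It was at 93.1 CPM in the library labelled WT DMSO replicate 4, and at 125 to 387 CPM in the 6 rd10 libraries. That library goes against its label, so each comparison with WT DMSO is given with it, as the labels have it, and without it. The retinal labels were also checked on marker lists, summed from the transcript table. The 9 rod markers summed to 70017 to 73826 CPM in WT DMSO replicates 1 to 3, 2672 CPM in the library labelled replicate 4, 3642 to 10449 CPM in rd10 DMSO and 3429 to 8595 CPM in rd10 HAL.

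The promoters are shown first, for the motif of TFEB and TFE3 described above. Many lysosomal genes are known to be bound by these factors. A raised share of the motif among the members was therefore foreseeable, and is given as a description only. RefSeq promoters (GRCm38.p6, 250 bases before to 50 bases after the start of the gene) were found for 37 of the 40 members, all but Ctsb, Ctsh and Asah1. The core CACGTG, which is its own reverse complement, was present in 14 of the 37 (37.8%), against 8.09% of all 27025 genes with a promoter and 11.9% of the 8901 that are in the gene table. The longer GTCACGTG, searched on both strands and overlapping the core, was present in 11 of the 37 (29.7%), against 2.55% of all genes and 5.02% of those in the gene table. The palindrome TCACGTGA, which overlaps both, was present in 5 of the 37 (Cln3, Mcoln1, Ctsa, Ctsd and Gla), against 1.12% of all genes and 2.35% of those in the gene table. The segments below run from the first to the last core before the start, with up to 10 bases on each side, and the capitals mark the cores. They are chosen by the comparison of rd10 DMSO with WT DMSO replicates 1 to 3, in which Lamp1 and Mcoln1 did not pass the test, Ctsd and Gaa rose, and Cln3, Gla and Ctsf fell. With the library labelled replicate 4 none of the 7 passed.
Lamp1 (chr8:13159090-13159160, plus strand): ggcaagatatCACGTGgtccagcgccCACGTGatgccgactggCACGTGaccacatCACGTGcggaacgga
Mcoln1 (chr8:3500438-3500489, plus strand): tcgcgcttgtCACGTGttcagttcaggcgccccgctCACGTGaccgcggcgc
Ctsd (chr7:142387910-142388077, minus strand): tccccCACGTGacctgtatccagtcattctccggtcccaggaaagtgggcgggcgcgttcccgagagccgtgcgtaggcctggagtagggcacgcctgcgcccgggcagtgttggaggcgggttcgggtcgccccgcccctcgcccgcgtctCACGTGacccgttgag
Gaa (chr11:119267813-119267838, plus strand): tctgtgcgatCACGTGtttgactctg
Cln3 (chr7:126583342-126583395, minus strand): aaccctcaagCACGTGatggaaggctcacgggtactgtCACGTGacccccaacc
Gla (chrX:134601184-134601242, minus strand): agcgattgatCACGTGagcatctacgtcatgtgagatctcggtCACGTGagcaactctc
Ctsf (chr19:4855076-4855101, plus strand): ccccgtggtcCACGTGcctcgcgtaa
Lamp1 had 4 cores in the 71 bases before its start, and Mcoln1, Ctsd, Cln3 and Gla had 2 each. A match of letters is a description of the sequence and does not show that a factor binds there.

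Levels of different members were compared per length, as CPM per kilobase of transcript. In WT DMSO replicates 1 to 3 the highest member was Psap, the precursor of the saposins that present sphingolipids to their hydrolases, at 255 CPM per kilobase. It was followed by the aspartic protease gene Ctsd at 156, the cysteine protease genes Ctsf at 117 and Ctsb at 113, and Lamp1 at 84.3 CPM per kilobase. Manba, the gene of beta-mannosidase, was the lowest at 1.68 CPM per kilobase. In rd10 DMSO the order at the top was Psap at 355, Ctsd at 240, Ctsb at 122, Ctsl at 86.3 and Lamp1 at 79.6 CPM per kilobase, and Ctsf was seventh at 75.5 CPM per kilobase. In rd10 HAL, Psap was at 366, Ctsd at 221, Ctsb at 114 and Ctsf at 82.8 CPM per kilobase.

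The 39 members together summed to 3959 ± 114.5 CPM in WT DMSO replicates 1 to 3, 4923 CPM in the library labelled replicate 4, 4901 ± 209 CPM in rd10 DMSO and 4768 ± 132 CPM in rd10 HAL (mean ± SD, n = 3 in each group but the single library). The rd10 sums of 4673 to 5139 CPM all lay above the WT sums of 3892 to 4091 CPM. Ctsf made up 4.84% to 5.30% of the sum in WT DMSO replicates 1 to 3 and 2.61% to 3.24% in the 6 rd10 libraries.

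**Figure D1:**
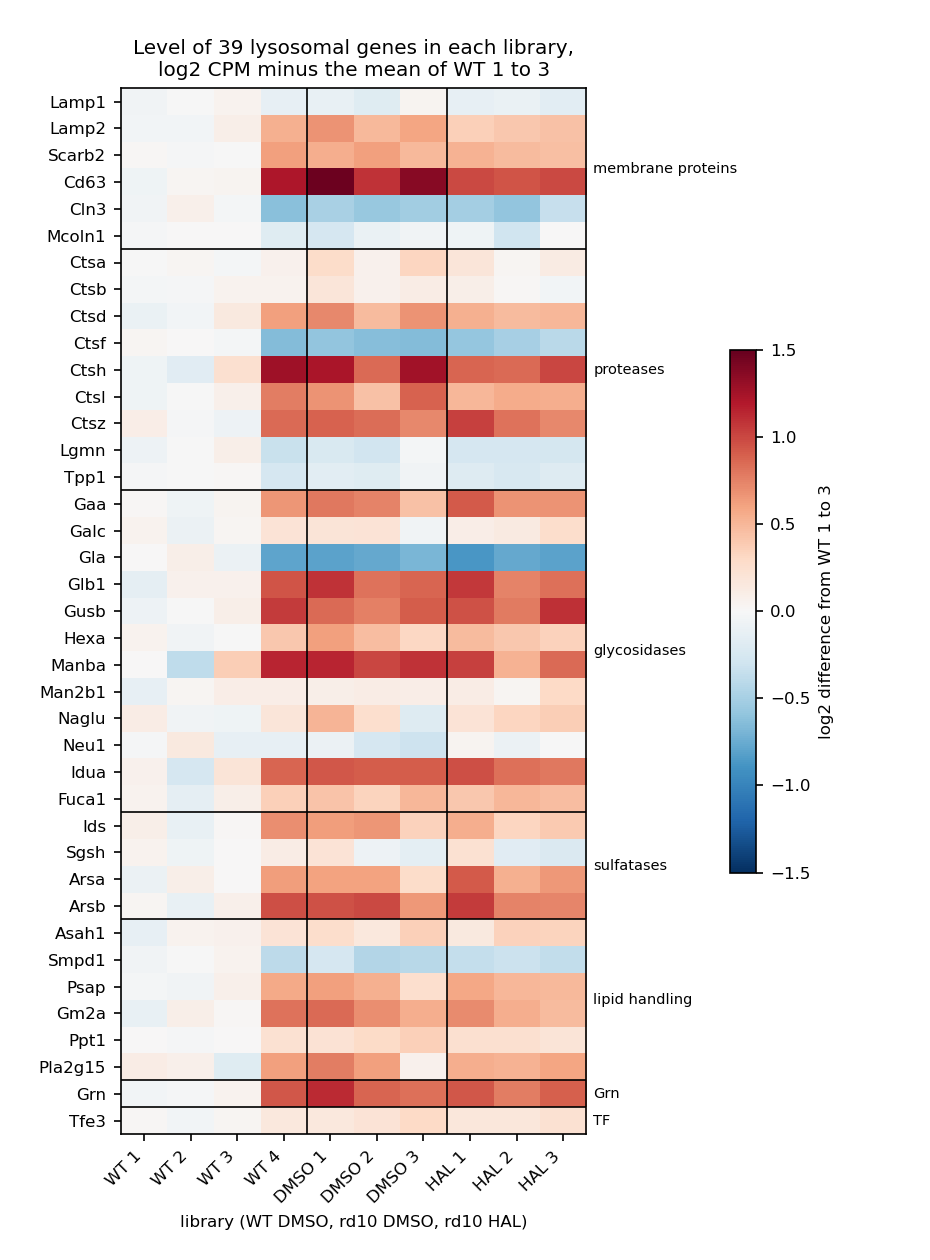
Heat map of the 39 members (rows, ordered by role) in each of the 10 libraries (columns). Colour gives log2 CPM minus the mean log2 CPM of WT DMSO replicates 1 to 3. The library labelled WT 4 has the colours of the rd10 columns, with Cd63, Ctsh and Manba at the red end and Gla and Ctsf at the blue end.

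The first comparison asked how the members differ between rd10 and wild type retinas that received only the vehicle. A call is an adjusted p under 0.05 by edgeR's quasi-likelihood test with Benjamini-Hochberg adjustment over all genes tested. With the 4 libraries labelled WT DMSO, 0 of 39 members were called by edgeR, as were 0 of 11698 genes (0.0%). At an unadjusted p under 0.05 there were 12 members, against 26.6% of all genes. DESeq2 called 0 members, against 589 genes (5.04%), and limma-voom called 0 members and 0 genes. The median log2 fold change of the members was 0.31, against -0.02 for all genes.

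Without the library labelled WT DMSO replicate 4, 25 members rose and 4 fell of 39, while 10 did not pass the test. Over all 11696 genes tested, 62.2% were called, 32.3% higher and 29.9% lower. Hence 64.1% of the members were higher and 10.3% were lower. The median log2 fold change of the members was 0.48, against -0.01 for all genes. DESeq2 and limma-voom each called 29 members, against 62.7% and 63.2% of all genes. WT DMSO holds libraries of batch 1 only, and with rd10 DMSO replicates 1 and 2 of the same batch alone, 27 members were higher and 8 were lower, against 36.5% and 35.9% of all genes. The set names in the titles still differ between these WT and rd10 libraries. With an offset for GC content, 23 members were higher and 8 were lower, with a median of 0.39, against 31.9% and 35.5% of all genes.

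The library labelled WT DMSO replicate 4 lay nearer to the mean of the 6 rd10 libraries than to that of WT DMSO replicates 1 to 3 for 37 of the 39 members. Among the 29 called members this held for 28, with Ctsa the exception, and 23 of the 29 had this library within the range of the 6 rd10 libraries. A chi-square of counts between 2 libraries, averaged over genes, was 421 to 431 between it and WT DMSO replicates 1 to 3. Among those replicates it was 4.48 to 10.2. The share over all genes was not counted, so these counts are not shown to be particular to the members. In the values that follow, WT refers to WT DMSO replicates 1 to 3 in the order of their numbers, the first adjusted p comes from the fit without the library labelled replicate 4, and no member passed the test with it.

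**Figure D2:**
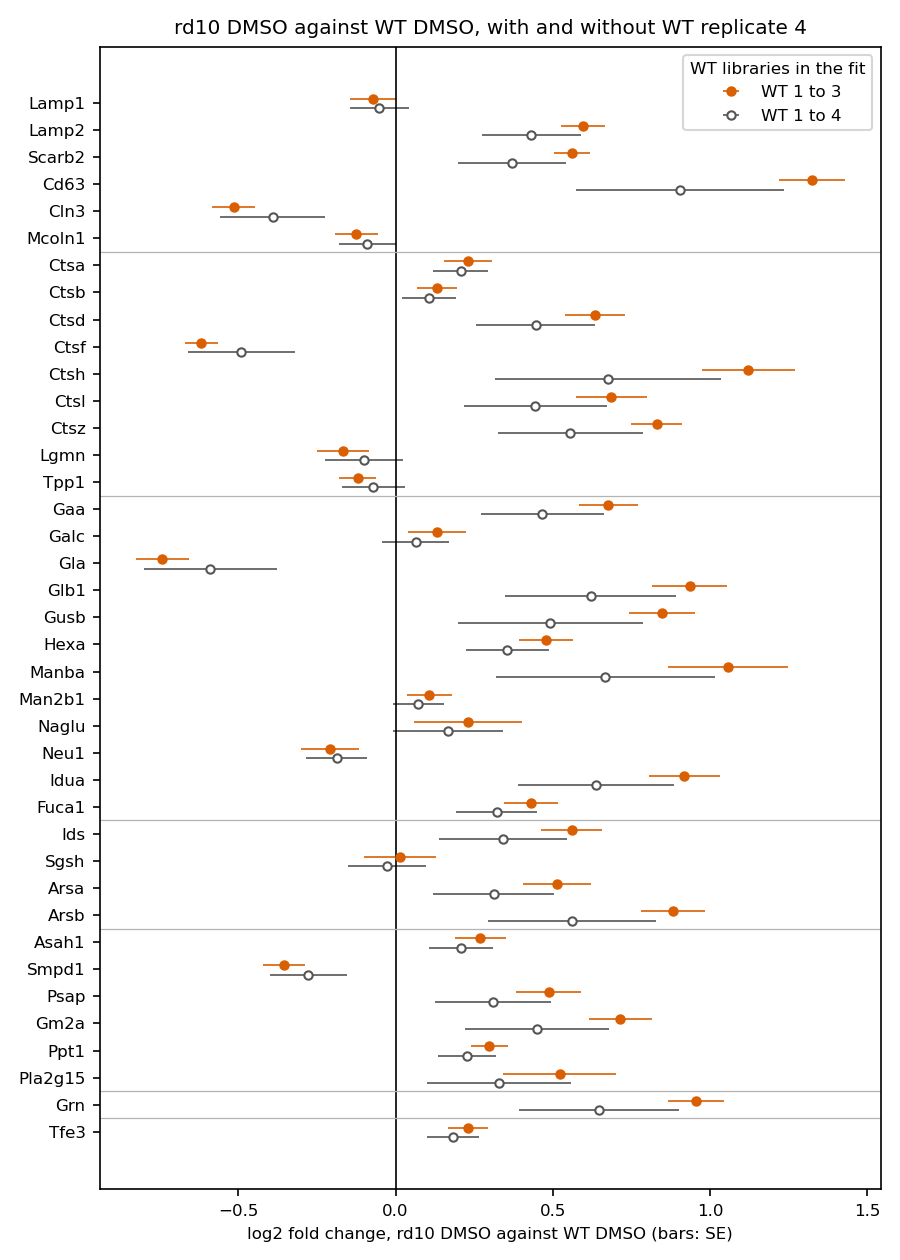
Log2 fold change of each member, rd10 DMSO against WT DMSO (horizontal axis), with bars of 1 SE. Filled points leave out the library labelled WT replicate 4 and open points keep it. The filled points range from -0.74 (Gla) to 1.32 (Cd63), and the open points have longer bars and lie nearer to 0 for all members but Sgsh.

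Of the 6 membrane proteins, 3 rose, 1 fell and 2 did not pass the test, and the 66.7% called is near the 62.2% of all genes. Cd63, a tetraspanin of late endosomes, lysosomes and exosomes, was at 33.1, 35.5 and 35.6 CPM in WT and at 96.7, 73.5 and 89.2 CPM in rd10 DMSO. The library labelled WT DMSO replicate 4 held 80.4 CPM, among the rd10 values. The log2 fold change was 1.32 ± 0.11 (SE), or 2.50-fold, the largest rise of any member (adjusted p = 5.65e-05, and 0.187 with the library labelled replicate 4, where the log2 fold change was 0.90).

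Scarb2, a membrane protein that carries glucocerebrosidase to the lysosome, was at 173, 169 and 170.0 CPM in WT and 248, 262 and 240.1 CPM in rd10 DMSO, with 261 CPM in the library labelled replicate 4. Its log2 fold change was 0.56 ± 0.06 (adjusted p = 0.000146, and 0.192 with that library). Lamp2, a major glycoprotein of the lysosomal membrane, was at 88.1, 87.8 and 96.4 CPM in WT and at 145, 127 and 137 CPM in rd10 DMSO, with 132 CPM in the library labelled replicate 4. It rose by 0.60 ± 0.07 on the log2 scale (adjusted p = 0.000279, and 0.187 with that library). For both genes every rd10 DMSO library was above every WT library, which is not so once the library labelled replicate 4 is counted. Over all 11702 genes, 69.1% did not overlap between these groups in either direction, and 10.1% with that library.

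Cln3, the membrane protein gene mutated in juvenile Batten disease, was at 41.3, 45.1 and 41.8 CPM in WT and at 30.5, 28.9 and 29.7 CPM in rd10 DMSO. It fell by 0.51 ± 0.07 on the log2 scale (adjusted p = 0.000505, and 0.188 with the library labelled replicate 4 at 27.7 CPM). Lamp1, the companion of Lamp2 in the membrane, was at 181, 187 and 194 CPM in WT and 173, 165 and 192 CPM in rd10 DMSO. The groups overlapped, and its log2 fold change of -0.07 ± 0.07 did not pass the test (adjusted p = 0.413). It was -0.15 with an offset for GC content (adjusted p = 0.102), and without rd10 DMSO replicate 3 it was -0.14 and passed (adjusted p = 0.0385). The calcium-permeable channel gene Mcoln1 was at 94.8, 96.0 and 96.4 CPM in WT and 80.3, 89.1 and 92.2 CPM in rd10 DMSO, a log2 fold change of -0.12 ± 0.07 (adjusted p = 0.143). It passed the test at -0.20 with an offset for GC content (adjusted p = 0.0489) and at -0.17 without rd10 DMSO replicate 3 (adjusted p = 0.0303).

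**Figure D3:**
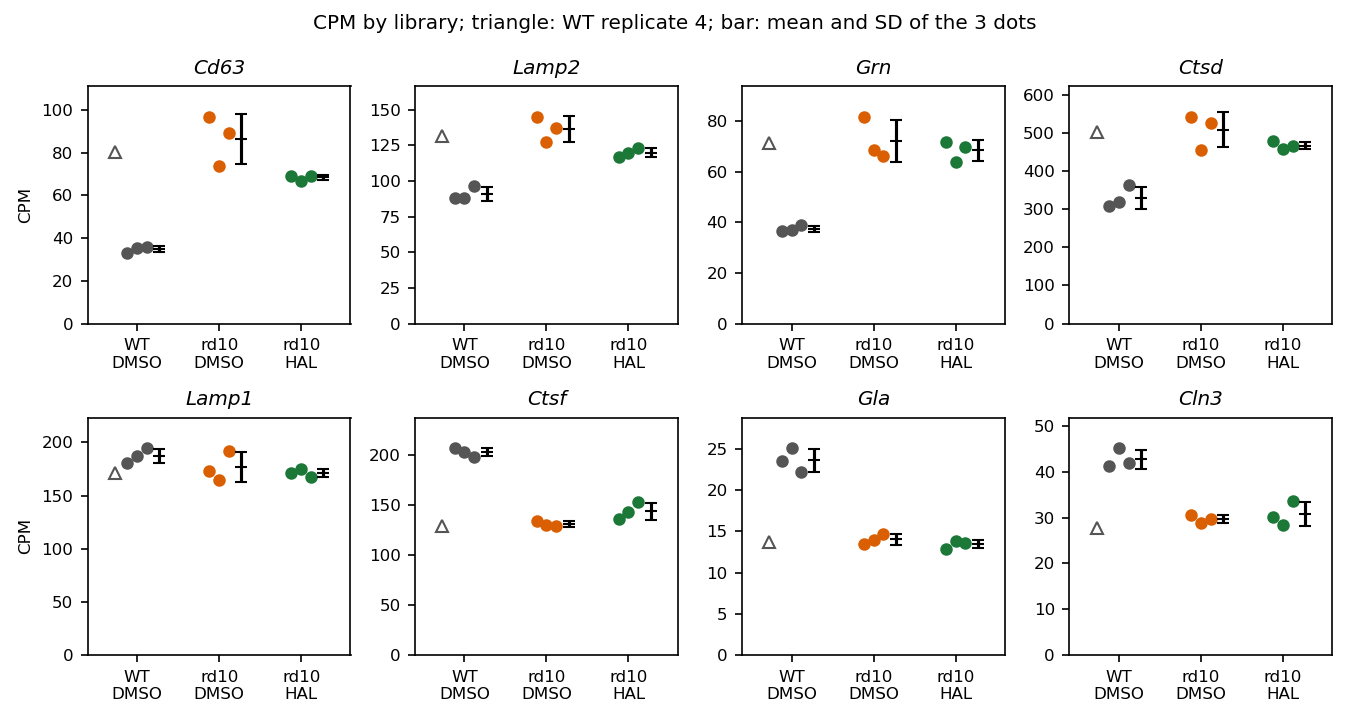
CPM of 8 members in each library (vertical axes from 0), by group. Dots are WT DMSO replicates 1 to 3, rd10 DMSO and rd10 HAL replicates, the open triangle is the library labelled WT DMSO replicate 4, and bars give the mean and SD of the 3 dots. In each panel but that of Lamp1 the rd10 dots lie apart from the WT dots and near the triangle.

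The deposited transcript table separates 3 coding transcripts of Lamp2, which share 8 coding exons and differ in the final one, the exon that encodes the membrane span and the short cytosolic tail. Lamp2-201 encodes LAMP2A, the form known as the receptor of chaperone-mediated autophagy. The ends of the 3 coding sequences (GENCODE M21, GRCm38) are printed to show the difference, with 15 bases of the shared exon in lower case and the alternative exon, without its stop codon, in capitals.
Lamp2-201 (final coding exon at chrX:38405435-38405571, minus strand): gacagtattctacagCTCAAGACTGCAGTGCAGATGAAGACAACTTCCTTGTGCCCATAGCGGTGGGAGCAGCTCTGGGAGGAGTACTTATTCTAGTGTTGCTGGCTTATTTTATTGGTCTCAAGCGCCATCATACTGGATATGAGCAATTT
Lamp2-202 (final coding exon at chrX:38421715-38421851, minus strand): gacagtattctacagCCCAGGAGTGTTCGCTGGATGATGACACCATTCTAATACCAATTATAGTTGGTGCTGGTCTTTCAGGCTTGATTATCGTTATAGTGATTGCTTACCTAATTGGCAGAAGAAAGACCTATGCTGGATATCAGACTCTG
Lamp2-203 (final coding exon at chrX:38402142-38402281, minus strand): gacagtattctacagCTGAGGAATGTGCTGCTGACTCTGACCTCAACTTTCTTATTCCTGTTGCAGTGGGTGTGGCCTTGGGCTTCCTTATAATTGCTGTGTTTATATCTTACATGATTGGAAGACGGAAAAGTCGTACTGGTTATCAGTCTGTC
Lamp2-201 was at 5.82, 5.09 and 4.30 CPM in WT, 12.8, 12.0 and 15.5 CPM in rd10 DMSO and 11.7, 13.9 and 14.9 CPM in rd10 HAL. The ratio of the means was 2.64 for rd10 DMSO over WT. Lamp2-202 was at 56.2, 54.4 and 62.6 CPM in WT, 96.2, 79.6 and 91.4 CPM in rd10 DMSO and 72.4, 75.4 and 72.6 CPM in rd10 HAL. Its ratio was 1.54 for rd10 DMSO and 1.27 for rd10 HAL over WT. Lamp2-203 was at 23.95, 26.9 and 27.3 CPM in WT, 32.5, 31.7 and 28.4 CPM in rd10 DMSO and 28.7, 28.1 and 33.1 CPM in rd10 HAL.

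Of the counts on the 3 transcripts, Lamp2-201 held 6.76%, 5.89% and 4.57% in WT, 9.04%, 9.699% and 11.4% in rd10 DMSO and 10.4%, 11.9% and 12.3% in rd10 HAL. The library labelled WT DMSO replicate 4 held 10.9%. The shares in WT did not overlap those in rd10 of either treatment, whereas the shares of rd10 DMSO and rd10 HAL did. The transcripts were looked at after the gene values had been seen, were not tested, and share most of their coding sequence, so the division of counts between them is an estimate of the authors' pseudoalignment.

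**Figure D4:**
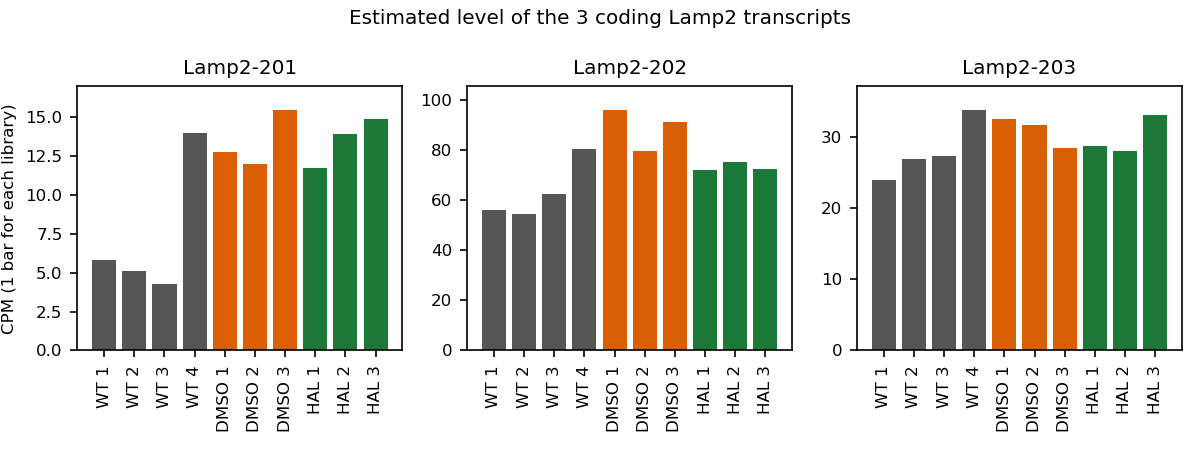
Estimated CPM of the 3 coding Lamp2 transcripts (1 panel each, vertical axes from 0) with 1 bar for each library. Lamp2-201 is at 4.30 to 5.82 CPM in WT 1 to 3 and at 11.7 to 15.5 CPM in the other 7 libraries, including the library labelled WT 4.

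Of the 9 proteases, 5 rose, 1 fell and 3 did not pass the test, again 66.7% called against 62.2% of all genes. Ctsz, a cysteine carboxypeptidase, was at 22.3, 20.6 and 19.8 CPM in WT and at 38.7, 37.5 and 34.6 CPM in rd10 DMSO, with 37.5 CPM in the library labelled replicate 4. It rose by 0.83 ± 0.08 on the log2 scale (adjusted p = 0.000118, and 0.187 with that library). Ctsd, the main aspartic protease of lysosomes, was at 309, 319 and 364 CPM in WT and at 543, 457 and 528 CPM in rd10 DMSO, with 504 CPM in the library labelled replicate 4. Its log2 fold change was 0.63 ± 0.095, or 1.55-fold (adjusted p = 0.000856, and 0.188 with that library). The largest rise in the group was that of the aminopeptidase gene Ctsh at 2.18-fold, and the others were Ctsl at 1.61-fold and Ctsa, which stabilises beta-galactosidase and neuraminidase, at 1.17-fold.

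Ctsf, another cysteine protease gene, moved the other way. It was at 206, 202 and 198 CPM in WT and at 134, 129.8 and 129 CPM in rd10 DMSO, and fell by 0.62 ± 0.05 on the log2 scale (adjusted p = 6.45e-05, and 0.187 with the library labelled replicate 4 at 128 CPM). Ctsb, an abundant cysteine protease gene, was at 459, 465 and 485 CPM in WT and 533, 492 and 506 CPM in rd10 DMSO. These groups did not overlap, which held for 69.1% of all genes. The log2 fold change of 0.13 ± 0.06 did not pass the test (adjusted p = 0.112, and 0.359 with an offset for GC content, where it was 0.07). The asparaginyl endopeptidase gene Lgmn and the tripeptidyl peptidase gene Tpp1 were at log2 fold changes of -0.17 and -0.12, with adjusted p = 0.113 and 0.11.

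Of the 12 glycosidases, 7 rose, 1 fell and 4 did not pass the test, which is 66.7% called and near the share of all genes (62.2%). Idua, whose enzyme removes iduronic acid from dermatan and heparan sulfate, was at 16.6, 13.4 and 18.2 CPM in WT and at 30.3, 30.0 and 30.0 CPM in rd10 DMSO, with 29.1 CPM in the library labelled replicate 4. Its log2 fold change was 0.92 ± 0.11 (adjusted p = 0.000344, and 0.187 with that library). Gusb, the gene of beta-glucuronidase, was at 8.11, 8.57 and 9.10 CPM in WT and at 15.5, 14.5 and 16.1 CPM in rd10 DMSO, with 17.8 CPM in the library labelled replicate 4. It rose by 0.85 ± 0.11 on the log2 scale (adjusted p = 0.000349, and 0.248 with that library). The levels of both genes were low, and every rd10 DMSO library was above every WT library. Such a separation, in either direction, was seen for 69.1% of all genes.

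Manba rose 2.08-fold, Glb1, the gene of beta-galactosidase, 1.91-fold and Gaa, the glycogen-digesting acid alpha-glucosidase gene, 1.60-fold. Hexa, which encodes a subunit of beta-hexosaminidase, rose 1.39-fold and the fucosidase gene Fuca1 1.35-fold. Gla, whose alpha-galactosidase A digests globotriaosylceramide, was at 23.6, 25.1 and 22.2 CPM in WT and at 13.5, 13.9 and 14.7 CPM in rd10 DMSO. It fell by 0.74 ± 0.08 on the log2 scale, the largest fall of any member (adjusted p = 0.000237, and 0.187 with the library labelled replicate 4 at 13.7 CPM). The 4 glycosidase genes that did not pass the test were Galc, Man2b1, Naglu and Neu1, at log2 fold changes of -0.21 to 0.23.

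Of the 4 sulfatases, 3 rose and Sgsh, at a log2 fold change of 0.01, did not pass the test, against 62.2% of all genes called. Arsb, whose enzyme removes sulfate from dermatan sulfate, was at 49.4, 44.8 and 51.2 CPM in WT and at 93.8, 95.8 and 76.1 CPM in rd10 DMSO, with 94.4 CPM in the library labelled replicate 4. It rose by 0.88 ± 0.10 on the log2 scale (adjusted p = 0.000237, and 0.195 with that library). The iduronate sulfatase gene Ids rose 1.47-fold and Arsa, whose enzyme acts on cerebroside sulfate, 1.43-fold.

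All 6 lipid handling genes passed the test, 5 of them higher and 1 lower, against 62.2% of all genes called. Psap rose 1.40-fold and Gm2a, which encodes an activator protein for ganglioside breakdown, 1.64-fold. The phospholipase gene Pla2g15 rose 1.44-fold, the palmitoyl thioesterase gene Ppt1 1.23-fold and the acid ceramidase gene Asah1 1.21-fold. Smpd1, the gene of acid sphingomyelinase, was at 123, 127 and 132 CPM in WT and at 107, 93.7 and 95.5 CPM in rd10 DMSO. It fell by 0.36 ± 0.07 on the log2 scale (adjusted p = 0.00275, and 0.189 with the library labelled replicate 4 at 97.1 CPM).

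Grn, the precursor of the granulins and a gene of frontotemporal dementia, was at 36.5, 37.1 and 38.8 CPM in WT and at 81.6, 68.4 and 66.2 CPM in rd10 DMSO, with 71.4 CPM in the library labelled replicate 4. It rose by 0.96 ± 0.09 on the log2 scale (adjusted p = 0.000101, and 0.187 with that library). Tfe3 was at 49.3, 47.2 and 49.8 CPM in WT and at 54.3, 56.4 and 60.0 CPM in rd10 DMSO, a rise of 0.23 ± 0.06 on the log2 scale (adjusted p = 0.0145). That call was lost with an offset for GC content (0.15, adjusted p = 0.153), without WT DMSO replicate 1 (adjusted p = 0.0598) and without WT DMSO replicate 2 (adjusted p = 0.0572). Tfeb, summed from its transcripts and not tested, was at 6.40, 6.45 and 6.18 CPM in WT, 10.9, 8.20 and 4.12 CPM in rd10 DMSO and 8.51, 12.2 and 10.2 CPM in rd10 HAL. The rd10 DMSO values of Tfeb lay on both sides of the WT values, and the rd10 HAL values lay above them.

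Whether a member had the CACGTG core could be set beside its call for 36 members. Of the 14 with the core, 6 were higher, 3 were lower and 5 were not called, with a median log2 fold change of 0.12. Of the 22 without it, 17 were higher, 1 was lower and 4 were not called, with a median of 0.54. The lower members with the core were Cln3, Ctsf and Gla, and the lower member without it was Smpd1. Among all genes tested that had a promoter, 29.9% of the 1060 with the core were higher and 28.9% were lower, against 31.7% and 30.1% of the 7840 without it. No test was made of this division.

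Markers of retinal cell types and blood were set beside these differences, and the lists did not all move the same way. The 12 microglia markers summed to 34.8 to 44.1 CPM in WT and 148 to 189.6 CPM in rd10 DMSO, and all 12 were above WT in each of the 6 rd10 libraries. The 8 gliosis markers summed to 140.3 to 163 CPM in WT and 1204 to 1287 CPM in rd10 DMSO, and all 8 were above WT in each rd10 library. The 8 Muller glia markers summed to 3912 to 4053 CPM in WT and 6070 to 7392 CPM in rd10 DMSO, 7 of the 8 being above WT in each rd10 library. All 9 rod markers were below WT in each rd10 library. The 7 bipolar cell markers summed to 1405 to 1494 CPM in WT and 2296 to 2727 CPM in rd10 DMSO, and 5 of the 7 rose in the fit, with a median log2 fold change of 1.04. The 8 pigment epithelium markers summed to 55.2, 47.5 and 233 CPM in WT and 597, 171 and 485 CPM in rd10 DMSO. Each of the 8 overlapped between WT and the rd10 libraries, and 2 of the 6 in the gene table rose, with a median of 1.07. The 8 cone markers summed to 1655 to 1820 CPM in WT and 1405 to 1705 CPM in rd10 DMSO, with 2 called higher and 2 lower. The 5 blood markers summed to 37.9 to 68.2 CPM in WT and 16.6 to 32.8 CPM in rd10 DMSO, and the 3 of them in the gene table fell, with a median of -0.92. The library labelled WT DMSO replicate 4 held 165 CPM of the microglia markers, 1044 of the gliosis markers, 7487 of the Muller glia markers, 2626 of the bipolar cell markers and 336 of the pigment epithelium markers. None of these markers was at 0 in any library. In bulk retina, fewer cells of a type and less RNA per cell cannot be told apart, and the part of these cell types in the members' values was not tested.

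Further lysosomal genes were taken from 3 lists, and compared in the fit without the library labelled WT DMSO replicate 4. Of 44 other lysosomal proteins, 22 rose, 9 fell and 13 did not pass the test, with a median log2 fold change of 0.20. The 70.5% called is set against 62.2% of all genes. The smallest p for a rise was that of Ctss, a cysteine protease of antigen-presenting cells, at 9.87, 7.21 and 7.24 CPM in WT and 46.3, 43.7 and 46.7 CPM in rd10 DMSO (log2 fold change 2.50 ± 0.13, adjusted p = 1.57e-05), followed by Laptm5, a membrane protein of blood cells (2.51 ± 0.14, adjusted p = 1.7e-05). Laptm4b fell by 1.04 ± 0.06 on the log2 scale (adjusted p = 1.83e-05) and Mfsd8, mutated in a form of Batten disease, fell by 0.93 ± 0.07 (adjusted p = 5.62e-05). With the library labelled WT DMSO replicate 4, none of the 44 was called by edgeR, and 6 (13.6%) were at an unadjusted p under 0.05, against 26.6% of all genes.

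Of 18 subunits of the V-ATPase, the pump that acidifies the lysosome, 10 rose and 2 fell, with a median of 0.19. The 66.7% called is near the 62.2% of all genes. Atp6v1g2 rose by 0.57 ± 0.05 (adjusted p = 9.65e-05) and Atp6v0a1 by 0.77 ± 0.09 (adjusted p = 0.000246), while Atp6v0e2 fell by 0.32 ± 0.06 (adjusted p = 0.00176) and Atp6v0b fell by 0.35 ± 0.08 (adjusted p = 0.00687). Of 22 genes of enzyme delivery and TFEB control, 5 rose and 8 fell, with a median of 0.01. The 59.1% called is also near that of all genes. Cln6, an endoplasmic reticulum protein that aids export of lysosomal enzymes, rose by 0.75 ± 0.10 (adjusted p = 0.000578) and the sorting receptor gene Sort1 by 0.30 ± 0.07 (adjusted p = 0.00661). Flcn and Fnip2, partners in a complex that restrains TFE3 and TFEB, fell by 0.70 ± 0.05 (adjusted p = 4.9e-05) and 1.24 ± 0.14 (adjusted p = 0.00025). With the library labelled replicate 4, edgeR called 0 of the 18 and 0 of the 22, and 4 of each list (22.2% and 18.2%) were at an unadjusted p under 0.05, below the 26.6% of all genes.

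The second comparison asked whether halofantrine moved the members in the rd10 retina. edgeR called 0 of 39 members between rd10 HAL and rd10 DMSO, as it did 0 of 11692 genes (0.0%). DESeq2 called 0 members and 3 genes, and limma-voom called 0 of each. At an unadjusted p under 0.05 there were 3 members, against 4.76% of all genes. The members' log2 fold changes ran from -0.34 to 0.20 with a median of -0.05, against -0.00 for all genes, and 23 of the 39 were below 0. With simulated counts for these 6 libraries, the test found 53% of genes set to a 1.5-fold change and 94% of genes set to a 2-fold change. The simulation held 200 changed genes and no batch difference, whereas edgeR called no gene in these data. These shares therefore do not carry over to a single member, and changes of these sizes or smaller could be missed.

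Cd63 had the smallest p of the lower members. It was at 69.2, 66.9 and 69.2 CPM in rd10 HAL against 96.7, 73.5 and 89.2 CPM in rd10 DMSO, a log2 fold change of -0.34 ± 0.10 (unadjusted p = 0.0121, adjusted p = 0.883). Every rd10 HAL library was below every rd10 DMSO library and above every WT library. Over all genes, 13.1% did not overlap between the treatments and 76.2% between rd10 HAL and WT, in either direction. The difference was -0.29 within batch 1 and -0.39 within batch 2. Over the alternatives run, its log2 fold change was -0.44 to -0.24 and the adjusted p was 0.269 to 1. The pigment epithelium markers, which include genes of pigment cells, moved with it. They summed to 597, 171 and 485 CPM in rd10 DMSO, in the same order of libraries as Cd63 and Lamp2, and to 233, 146 and 172 CPM in rd10 HAL. In rd10 HAL the order was not that of Lamp2, whose level was lowest in replicate 1, where these markers were highest. All 6 of them in the gene table had log2 fold changes below 0 (median -0.70), 2 of them at an unadjusted p under 0.05 and none called. Each of the 8 overlapped between the treatments, and their part in the values of Cd63 and Lamp2 was not tested.

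Lamp2 was at 117, 119.6 and 123 CPM in rd10 HAL against 145, 127 and 137 CPM in rd10 DMSO, a log2 fold change of -0.19 ± 0.07 (unadjusted p = 0.0262, adjusted p = 0.883). The groups did not overlap, and the difference was -0.22 within batch 1 and -0.18 within batch 2. It was -0.11 with an offset for GC content. Manba was at 11.3, 7.99 and 10.1 CPM in rd10 HAL and 12.2, 11.1 and 11.7 CPM in rd10 DMSO, at -0.26 ± 0.15 (unadjusted p = 0.121). The groups of Manba overlapped, and the value was -0.13 without rd10 HAL replicate 2.

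Of the members above 0, Neu1, the gene of a lysosomal sialidase, had the smallest p. It was at 56.0, 51.0 and 53.7 CPM in rd10 HAL against 51.0, 45.4 and 43.6 CPM in rd10 DMSO, at 0.20 ± 0.08 on the log2 scale (unadjusted p = 0.0402, adjusted p = 0.883). The difference was 0.22 within batch 1 and 0.26 within batch 2. Ctsf was at 136, 143 and 153 CPM in rd10 HAL against 134, 129.8 and 129 CPM in rd10 DMSO, at 0.13 ± 0.06 (unadjusted p = 0.0742), and its groups did not overlap. It was 0.08 with an offset for GC content. Arsa was at 34.5, 26.2 and 28.4 CPM in rd10 HAL against 27.5, 27.5 and 22.0 CPM in rd10 DMSO, at 0.20 ± 0.13 (unadjusted p = 0.169), with groups that overlapped. The value was 0.08 without rd10 HAL replicate 1, 0.11 without rd10 DMSO replicate 3, 0.12 with an offset for GC content and 0.32 with batch as a term.

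In all, 4 of the 39 members did not overlap between rd10 HAL and rd10 DMSO, 1 higher (Ctsf) and 3 lower (Lamp2, Cd63 and Tpp1), against 13.1% of all 11702 genes. Tpp1 was at 192, 186 and 191 CPM in rd10 HAL and 196, 193 and 211 CPM in rd10 DMSO, at -0.08 ± 0.06 on the log2 scale (adjusted p = 0.883), and at -0.035 without rd10 DMSO replicate 3. Lamp1 was at 171, 175 and 167 CPM in rd10 HAL, Ctsb at 500.3, 476 and 455 CPM, Ctsd at 479, 459 and 466 CPM and Mcoln1 at 91.3, 78.1 and 96.1 CPM. These ranges all overlapped those of rd10 DMSO, as did that of Tfe3 at 55.1, 55.0 and 57.0 CPM.

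Within batch 1, rd10 HAL replicate 1 was set against rd10 DMSO replicates 1 and 2, and within batch 2, rd10 HAL replicates 2 and 3 against rd10 DMSO replicate 3, with no test. The difference was above 0 in both batches for 10 members, below 0 in both for 14 and of opposite sign for 15. The median was -0.01 within batch 1 and -0.03 within batch 2. With batch as a term, 0 members were called and 5 were at an unadjusted p under 0.05: Cd63 and Lamp2 below 0, and Arsa, Gaa and Neu1 above 0, each at an adjusted p of 0.269. Under that fit 16.6% of all genes were at an unadjusted p under 0.05, above the members' share. The summed microglia markers were at 150.1 to 176 CPM in rd10 HAL, within the range of rd10 DMSO. The summed gliosis markers were at 1020 to 1182 CPM, below the range of rd10 DMSO. Gene by gene, 6 of the 8 gliosis markers were below 0 and 2 above, with a median of -0.17 and none called. Only 1 of the 8, Osmr, did not overlap between the treatments, against 13.1% of all genes. The blood markers were at 12.7 CPM in rd10 HAL replicate 1 and at 104 and 86.7 CPM in replicates 2 and 3 of batch 2. The 3 in the gene table had a median log2 fold change of 1.45 between the treatments, and none was called. The cone markers were at 1445 to 2024 CPM in rd10 HAL, and none was called. The part of these markers in the members' values was not tested.

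**Figure D5:**
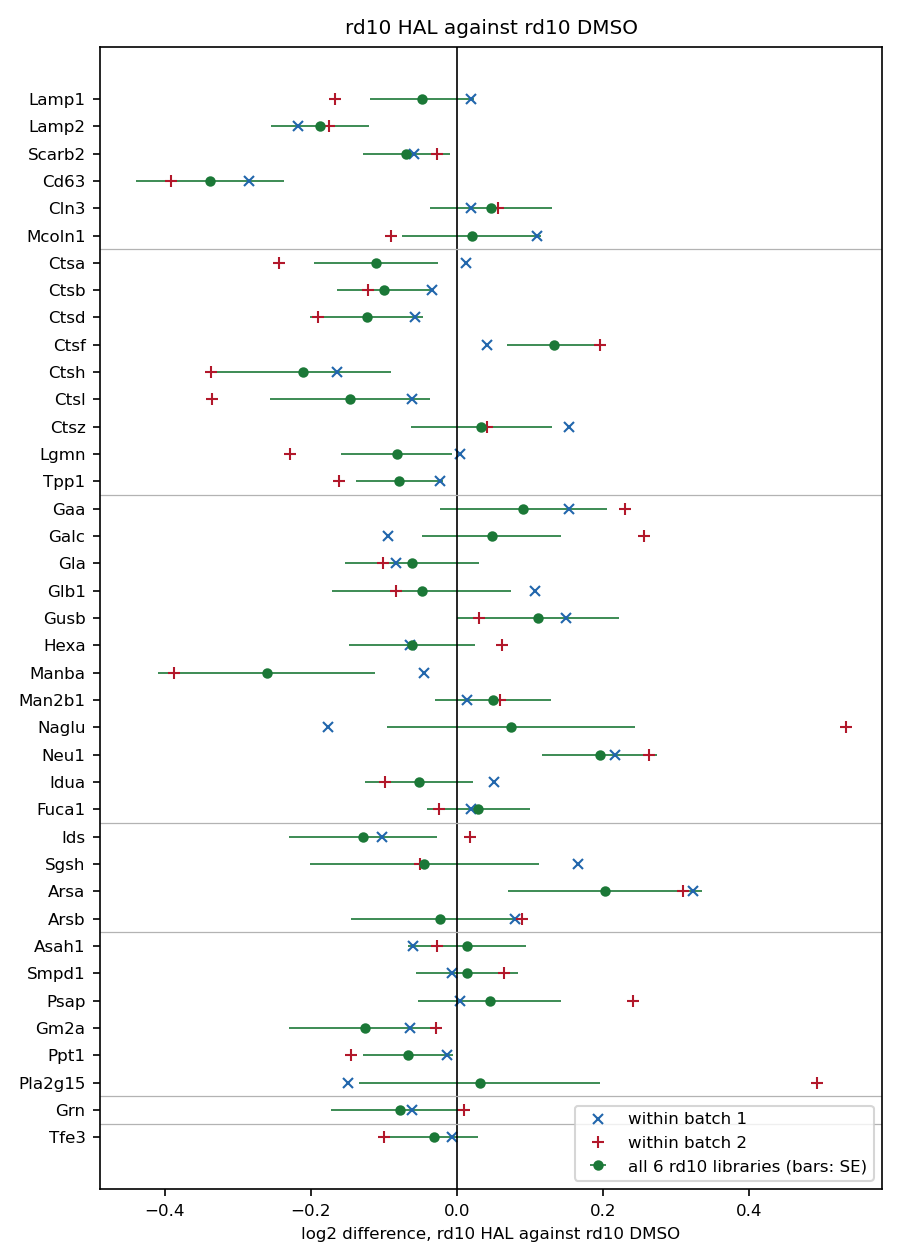
Log2 difference of each member between rd10 HAL and rd10 DMSO (horizontal axis). Circles with bars of 1 SE are from the 6 rd10 libraries, crosses are the difference within batch 1 and plus signs that within batch 2. All circles lie between -0.34 and 0.20, and the 2 batch marks fall on opposite sides of 0 for 15 members.

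The third comparison set rd10 HAL against WT DMSO. It shares the WT libraries with the first comparison, so its values are given beside those above and are not independent of them. With the library labelled WT DMSO replicate 4, edgeR called 0 of 39 members and 1 of 11699 genes (0.00855%), with 6 members (15.4%) at an unadjusted p under 0.05, against 34.6% of all genes. DESeq2 called 2 members, against 19.0% of all genes, and limma-voom called 0. Without that library, 25 members were higher and 7 were lower, against 35.7% and 36.2% of all genes and 71.9% in either direction, and the median of the members was 0.41. Cd63 was 1.97-fold higher in rd10 HAL than in WT, against 2.50-fold in rd10 DMSO. Gla was at a log2 fold change of -0.81 ± 0.08 in rd10 HAL and -0.74 ± 0.08 in rd10 DMSO. The members that passed the test in rd10 HAL and not in rd10 DMSO were Lgmn at -0.26 ± 0.05 (adjusted p = 0.00179), Tpp1 at -0.21 ± 0.04 (adjusted p = 0.00241), Lamp1 at -0.13 ± 0.05 (adjusted p = 0.0365) and Naglu at 0.30 ± 0.09 (adjusted p = 0.0165). Ctsa passed in rd10 DMSO and not in rd10 HAL, where it was at 0.11 ± 0.05 (adjusted p = 0.0792). The difference between the treatments is that of the second comparison, in which none of these genes was called.

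The fourth comparison asked how the members differ between the 2 batches of rd10 libraries, with treatment as a term. Of 39 members, 2 were called and both were lower in batch 2, against 4.63% of all 11698 genes in either direction and 1.55% lower. Arsb was at 76.1, 81.3 and 80.6 CPM in the batch 2 libraries (rd10 DMSO replicate 3, rd10 HAL replicates 2 and 3) and at 93.8, 95.8 and 100.2 CPM in those of batch 1. Its log2 fold change was -0.31 ± 0.05 (adjusted p = 0.0205). Gaa was at 181, 212 and 213 CPM in batch 2 and 231, 223 and 252 CPM in batch 1, at -0.29 ± 0.05 (adjusted p = 0.0243). Arsa, at 22.0, 26.2 and 28.4 CPM in batch 2 and 27.5, 27.5 and 34.5 CPM in batch 1, was at -0.33 ± 0.07 and did not pass the test (adjusted p = 0.0514).

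The calls of Arsb and Gaa rested on these libraries. They were lost with no treatment term (adjusted p = 0.0532 and 0.212), when all 10 libraries were fitted together (0.871 and 0.848) and when any single rd10 library but rd10 HAL replicate 1 was left out. Leaving out rd10 HAL replicate 1 gave 6 members called, against 22.5% of all genes, and an offset for GC content brought Gaa to -0.08 (adjusted p = 0.416). Of the 4 sulfatase genes only Arsb was called. The others were at log2 fold changes of -0.33 (Arsa), -0.24 (Ids, adjusted p = 0.0521) and -0.32 (Sgsh, adjusted p = 0.132). DESeq2 called 5 members, against 12.1% of all genes. The rod markers differed with the batch, at 3429 to 3756 CPM in the rd10 libraries of batch 1 and 7223 to 10449 CPM in those of batch 2. The 3 blood markers in the gene table had a median log2 fold change of 1.46 between the batches, with none called. All 8 Muller glia markers were below 0 in batch 2 (median -0.22, 1 called), as were all 7 bipolar cell markers (median -0.09, 2 called). Of the 8 cone markers, 6 were above 0 and 2 were called higher. Of 6 microglia markers in the gene table, 5 were below 0 and none was called. Of the 8 gliosis markers, 1 was called higher and 1 lower. The part of all these markers in the members' values was not tested.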

How the data were processed

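Retinal polyA RNA of 10 libraries was measured. Libraries were strand-specific, and the authors quantified reads by pseudoalignment in kallisto against the mouse transcripts of Ensembl 115 (GRCm39), followed by tximport. Tool versions are not given in the sources used here. They deposited estimated counts per transcript and per gene, of which 51.39% per gene are whole numbers. A further table, deposited as CPM, holds those counts divided by 1 factor per library and served as a scaled signal for checks only. A deposited table of the authors' own fold changes and p-values was not used. The 275112 transcripts were matched to genes by GENCODE M21, which also gave length and GC content for 98.19% of genes, and symbols were found for 11492 of 11702 identifiers.

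Here the estimated counts were rounded, filtered by filterByExpr, scaled by TMM and tested with the quasi-likelihood test of edgeR 4.0.16 (R 4.3.3), with Benjamini-Hochberg adjustment over all genes tested. SE values were derived from the F statistic. Log2 CPM used a prior count of 2. The fits were tested on simulated data. Without the library labelled WT DMSO replicate 4, 61.5% of genes changed by a factor of 1.5 were recovered and 95% at a factor of 2. In each run 200 genes were changed. Of the unchanged genes, 9 and 15 were called falsely there, and 11 and 16 for rd10 HAL against rd10 DMSO. Library totals of 15512212 to 38160436 limit the precision of the lowest members. Comparisons were rd10 HAL against rd10 DMSO, each rd10 group against WT DMSO, and batch 2 against batch 1. The replicate numbers are names given in accession order and pair no libraries.

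Alternatives were DESeq2 1.42.0, limma-voom (limma 3.58.1), RLE scaling, no filter, at least 1 CPM in every library, a GC offset (lowess span 0.3), other sets of libraries, a batch term, and leaving out each replicate. The alternatives of the fits without the library labelled WT DMSO replicate 4 were chosen after seeing the data. The members, the gene lists and the tests were chosen with earlier results of these data known. Named members were the 8 with the smallest p per direction among those called between rd10 DMSO and WT DMSO, the 3 per direction with the smallest p for halofantrine and those whose groups did not overlap there, the 3 with the smallest p between batches, and Lamp1, Lamp2, Cd63, Ctsb, Ctsd, Tfeb, Tfe3 and Mcoln1. Of each list of other lysosomal genes, the 2 per direction with the smallest p were named. Members outside this rule are named after their values were seen, with fold changes and, for some, the adjusted p. Marker levels were summed from the transcript table. Per-length levels used transcript lengths weighted by counts. Promoters are from RefSeq GRCm38.p6, another build than the authors', so no other gene coordinates are given beside those of the Lamp2 exons.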

Additional observations from a re-analysis of the deposited data

Results flagged for a closer look

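Among the 4 libraries labelled WT DMSO, 10 of the 22 named members in the gene table had 1 library far from the other 3, by a gap that exceeded Dixon's 95% critical value for the share of the group's whole range. Over all 39 members, 14 had such a gap. Chance alone gives such a gap in about 1 of 20 groups, but most of the 22 were named for differences between rd10 and the other 3 WT libraries, so that share is no fair comparison for them. In all 10 the distant library was the one labelled replicate 4, with values near those of the rd10 libraries. It was the highest of the 4 for Scarb2 (gap 0.954 of the range), Cd63 (0.946), Grn (0.933), Gusb (0.897), Gaa (0.891), Arsb (0.872) and Ctsz (0.861). It was the lowest of the 4 for Ctsf (0.896), Mcoln1 (0.872) and Tpp1 (0.856). The members share this library, so the 10 gaps are not independent of each other.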

How the results depend on the processing

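No paired analysis was possible because the replicate numbers only name the libraries and the labels tie no library of one group to one of another. For halofantrine, 0 members were called under all 14 alternatives, and leaving out replicates gave medians of -0.08 to 0.02. The log2 fold change of Lamp1 ran from -0.0927 to 0.0199 on leaving out replicates, and was above 0 without rd10 DMSO replicate 3. For rd10 DMSO against the 4 libraries labelled WT DMSO, leaving out replicates gave 0 to 29 members called, with medians of 0.25 to 0.48. The 29 were without WT DMSO replicate 4, against 62.2% of all genes. Lamp1 ran from -0.1079 to 0.0051, being above 0 without rd10 DMSO replicate 2. For rd10 HAL against those 4, leaving out replicates gave 0 to 32 members called. The 32 were without WT DMSO replicate 4, against 71.9% of all genes. DESeq2 called 2 with all 4, against 19.0% of all genes. Without that library, 25 to 35 members were called between rd10 DMSO and WT DMSO and 30 to 33 between rd10 HAL and WT DMSO over the 13 alternatives of each, against 52.6% to 72.3% and 65.4% to 74.3% of all genes. In the former, 215 values of named members kept their side of the threshold and their direction, 3 lost the call (Tfe3) and 3 gained it (Lamp1 and Mcoln1). For batch 2 against batch 1, DESeq2 called 5 members, against 12.1% of all genes. The fits with no treatment term and with all 10 libraries called 0. Leaving out replicates gave 0 to 6, the 6 being without rd10 HAL replicate 1, against 22.5% of all genes. The causes of these shifts were not tested, except that the fits with 1 library fewer hold fewer samples. Depth limits Manba, Gusb and Glb1, the members under 10 CPM in WT DMSO replicates 1 to 3.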
